A study of Drosophila melanogaster with 3 samples.

Results

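The sites described here are ChIP-seq peak list entries in the pericentric heterochromatin of 3 chromosome arms of Drosophila melanogaster. They were chosen by position alone. An entry was a member when its summit lay on 2L from 22160000 to the centromeric end, on 3L from 23030000 to the centromeric end, or on 3R from the centromeric end to 4200000 (dm6). By this rule 974 of the 30000 entries of the pooled peak list were members, 205 on 2L, 613 on 3L and 156 on 3R, and 17998 entries lay on the rest of the same 3 arms.

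The study mapped the genomic binding of CG33213 carrying enhanced GFP at its C terminus, in whole embryos of both sexes, 0 to 24 h old, from a stable transgenic line. Chromatin was sonicated and precipitated with an antibody against GFP, while the labels' antibody entry reads CG33213. There was 1 group of 3 biological replicates and no second genotype, treatment or time, so the tagged protein was present in every library analysed and all cell types of the embryo were mixed. The control library named among the inputs of the peak lists was not analysed here, and the promoter that drives the transgene is not stated in the labels.

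Pericentric heterochromatin is the compact, repeat-rich chromatin that flanks the centromere, marked by methylated histone H3 lysine 9 and by HP1. It consists largely of satellite DNA and remnants of transposable elements, so short reads often cannot be placed there. It also holds genes that need this setting for normal expression, light (lt) being the classic example, and many of them have introns swollen by repeats.

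The entries come from lists that the submitters describe as peaks together with background, so that most of them are weak. The optimal list, which the submitters cut by irreproducible discovery rate, held the 4417 entries of highest signal in the pooled list. Ranks below count from 1 for the highest signal of the peak caller within a list. The signal is the authors' value and was used only to rank entries within its own list.

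The sequences that follow are those of the members of best rank, of every optimal member with the word TATCGATA, and of members that resemble each other or a tandem repeat. Each is the plus strand of dm6 over the summit and 50 bp on both of its sides, without annotated UTR bases, read from the RefSeq copy of the assembly. Capitals mark TATCGATA (the DNA replication-related element, DRE), its core CGATA, which is contained in it, and CAGCTG, on either strand. The site of rank 15, at chr3R:3374287-3374387, and the site of rank 24, at chr2L:22261182-22261282, were the strongest members:
3R rank 15: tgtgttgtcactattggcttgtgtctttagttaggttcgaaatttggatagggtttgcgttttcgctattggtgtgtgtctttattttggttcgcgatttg
2L rank 24: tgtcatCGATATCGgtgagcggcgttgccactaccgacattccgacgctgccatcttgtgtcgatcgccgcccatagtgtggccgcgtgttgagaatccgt

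The members of rank 443, 479 and 552 lay at the starts of the genes MED21 (chr3L:25115947-25116042) and Clamp (chr2L:22169185-22169285), and at the start of a non-coding RNA inside nAChRalpha4 (chr3L:23279201-23279301):
MED21 rank 443: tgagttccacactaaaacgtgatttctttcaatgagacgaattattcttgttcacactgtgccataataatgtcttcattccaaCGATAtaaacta
Clamp rank 479: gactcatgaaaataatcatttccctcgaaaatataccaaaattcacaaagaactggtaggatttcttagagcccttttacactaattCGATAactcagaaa
lncRNA:CR46475 rank 552: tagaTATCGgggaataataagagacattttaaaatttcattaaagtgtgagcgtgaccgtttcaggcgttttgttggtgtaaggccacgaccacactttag

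The DRE was found at 3 optimal members, in an intron of Snap25 (chr3L:24231506-24231606), upstream of Tim17b (chr3R:3734114-3734214) and at the start of beta-Man (chr3R:4197140-4197205). The fourth sequence, also intronic in Snap25 (chr3L:24205329-24205429), ranked just below the optimal list and is shown for its likeness to the first:
Snap25 intron rank 512: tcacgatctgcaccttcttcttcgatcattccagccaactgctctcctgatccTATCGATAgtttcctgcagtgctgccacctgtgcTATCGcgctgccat
Tim17b upstream rank 903: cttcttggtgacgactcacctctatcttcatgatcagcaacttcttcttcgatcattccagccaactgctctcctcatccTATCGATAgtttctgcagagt
beta-Man rank 1053: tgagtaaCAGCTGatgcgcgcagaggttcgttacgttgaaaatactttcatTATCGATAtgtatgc
Snap25 intron rank 4460: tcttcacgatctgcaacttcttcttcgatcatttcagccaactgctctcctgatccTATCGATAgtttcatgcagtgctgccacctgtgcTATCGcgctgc

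One optimal member on 3L (chr3L:27173079-27173179) was a pure tandem repeat, with 100% of bases equal at a shift of 9 bases and no 31-mer that occurs once in the genome:
3L rank 2111: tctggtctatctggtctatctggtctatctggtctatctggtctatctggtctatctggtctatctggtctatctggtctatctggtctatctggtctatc

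The 3 stretches span 1.35 Mb on 2L, 5.08 Mb on 3L and 4.20 Mb on 3R. A 31-mer found once in the assembly began at 37.2% of their bases and at 95.5% of the bases on the rest of the arms. Pooled entries were sparser in the stretches, with 91.6 per Mb against 246 per Mb on the rest of the arms. The replicate lists had 72.1, 97.0 and 76.9 entries per Mb in the stretches, and 248, 248 and 252 per Mb on the rest, so the groups did not overlap (exact two-sided sign-flip permutation test over 3 replicates, p = 0.25, the smallest possible). Counted per Mb of unique sequence the density was 246 in the stretches and 258 on the rest, but the arms went opposite ways. It was 348 against 255 on 2L and 314 against 284 on 3L, higher in the stretches, and 110.5 against 239 on 3R, lower in the stretch. The replicates then gave 194, 261 and 207 per Mb in the stretches against 260, 259 and 263 on the rest, lower in 2 of 3 replicates (exact p = 0.5). The part of read placement in the density was not tested beyond this scaling.

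Density was uneven along the stretches. On 3L the first 5 bins of 1 Mb inward from the edge held 265, 107, 102, 24 and 114 entries. On 2L the first Mb held 181 and the remaining 0.354 Mb held 24. On 3R the first 4 bins held 117, 25, 10 and 2 entries, while unique sequence made up 41.1%, 36.8%, 34.3% and 27.3% of their bases. Per Mb of unique sequence 3R thus had 284, 68.0, 29.1 and 7.33 entries, whereas the bin of 3L from 4 to 5 Mb, with 27.3% unique bases, had 417. The first Mb of 3L was 55.1% annotated transposable element, and 109 of its 265 entries had their summit in one.

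**Figure D1:**
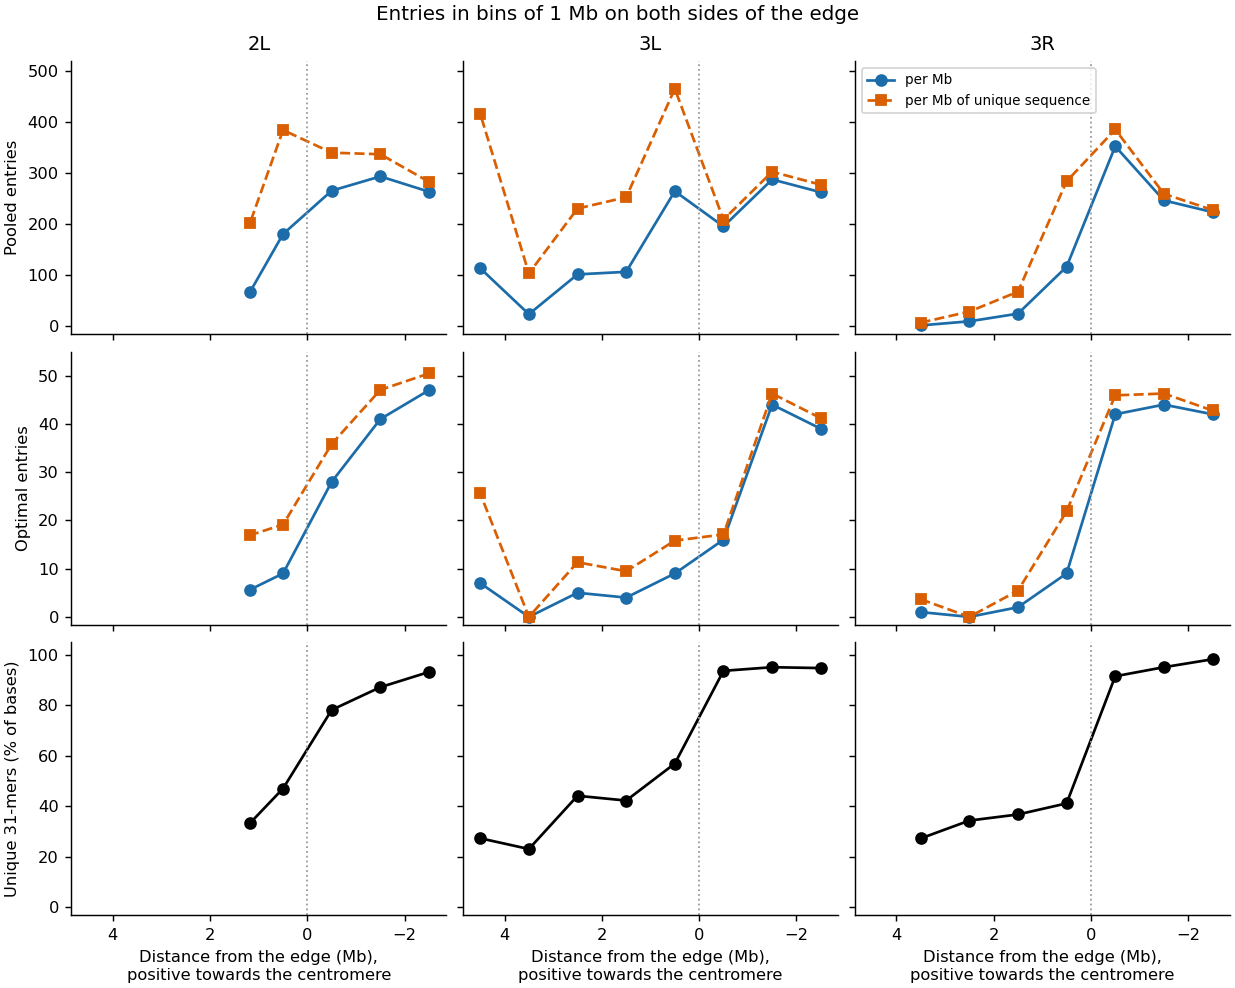
Pooled entries, optimal entries and the share of bases at which a unique 31-mer begins, in bins of 1 Mb, against the distance from the edge (dotted line), with the pericentric side on the left. On 3R the 4 pericentric bins hold 117, 25, 10 and 2 entries, also falling per Mb of unique sequence, and on 3L the bin from 4 to 5 Mb reaches 417 per Mb of unique sequence; the last incomplete bins of 3L and 3R are not drawn.

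Few members were strong. Of the 974, 48 (4.93%, exact Clopper-Pearson 95% interval 3.66 to 6.48) were in the optimal list, 11 on 2L, 25 on 3L and 12 on 3R, against 14.7% of all pooled entries and 15.2% on the rest of the arms. Among the same number of strongest entries of each replicate, the share was 5.50 ± 0.781% of the pericentric entries and 15.002 ± 0.203% of the entries on the rest (SD, n = 3), lower in 3 of 3 replicates (exact permutation p = 0.25, the smallest possible). The median pooled rank was 19026.5 for members and 14807 on the rest of the arms. Once in the optimal list, members ranked at a median of 2135 against 2233 for optimal entries on the rest. The intervals cover counting of entries, not replicate error, and the depth of the libraries is unknown.

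**Figure D2:**
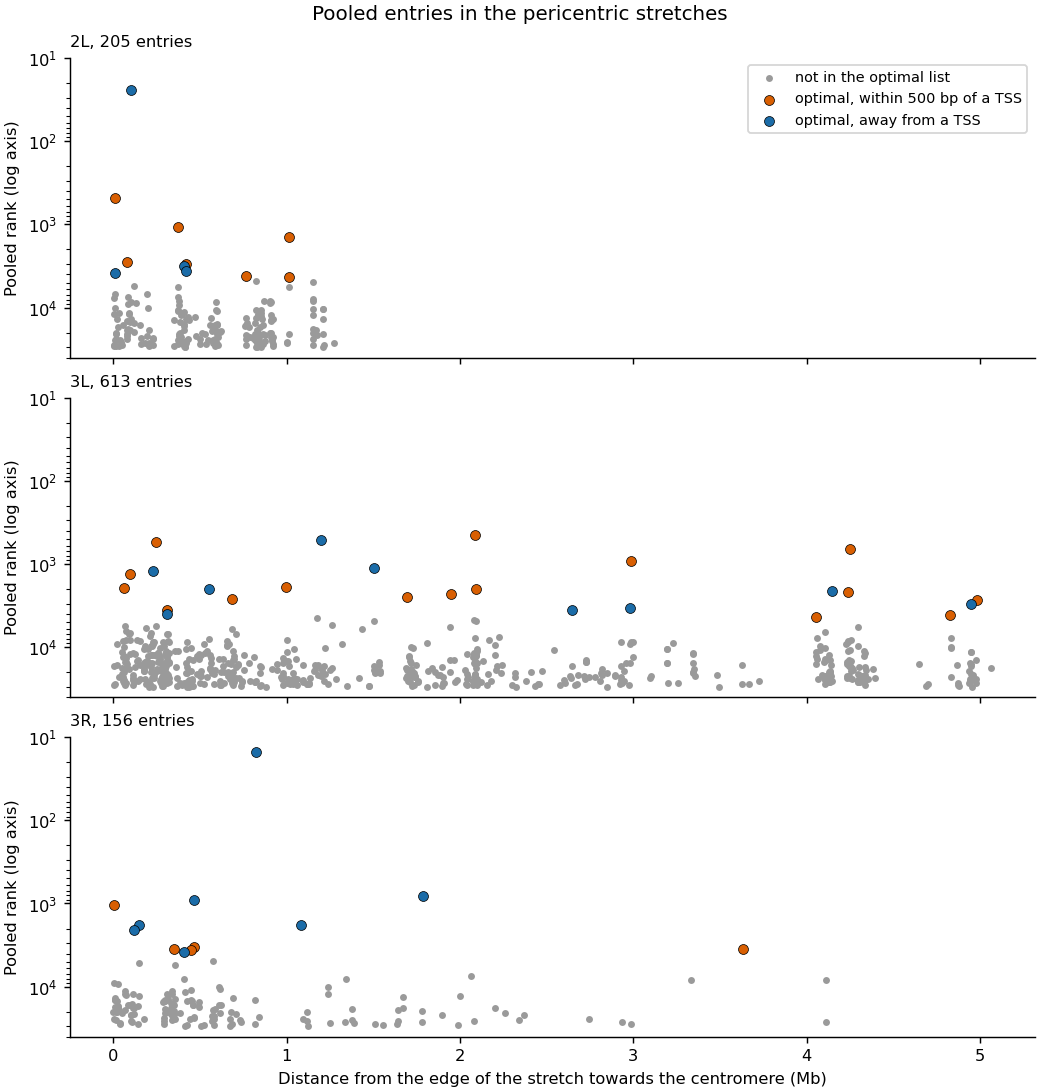
Pooled rank (log axis, strongest at the top) of all 974 members against their distance from the edge of the stretch in Mb, with 1 panel per arm. The 28 optimal members within 500 bp of a transcription start site are orange and the 20 others blue; 2 blue points, of rank 15 on 3R and rank 24 on 2L, stand above all the others.

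A pooled entry was said to recur when a summit of every replicate list lay within 150 bp. In all, 186 members (19.1%, 95% interval 16.7 to 21.7) recurred in all 3 lists, against 31% of all pooled entries and 31.1% on the rest of the arms. A further 318 recurred in 2 lists, 397 in 1 and 73 in none. Replicate 1 matched the fewest, 48.2% of members against 59.96% in replicate 2 and 55.2% in replicate 3, while the rest of the arms gave 63.1%, 62.4% and 63.0%. The pooled list was built from the replicates, so recurrence is not independent support. By rank, members were not lower than the rest in 3 of 4 bands. In the optimal list 97.9% of members and 96.4% of the entries on the rest recurred, between ranks 4418 and 10000 76.3% and 64.6% did, and from there to rank 20000 16.7% and 12.5%. Beyond rank 20000, where 451 of the 974 members lie, 0.443% of members and 0.623% of the rest recurred.

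Of the 48 optimal members 47 recurred. The exception lay at the start of RpL15, a protein of the large ribosomal subunit. It ranked 2159 in the pooled list, 2184 in replicate 2 and 1572 in replicate 3. Replicate 1 had no summit within 150 bp of it, but had an entry of rank 2028 within 500 bp of the RpL15 start. Among the strongest 4417 entries of all 3 replicates were 29 of the 48 (60.4%), against 62.5% of the optimal entries on the rest.

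**Figure D3:**
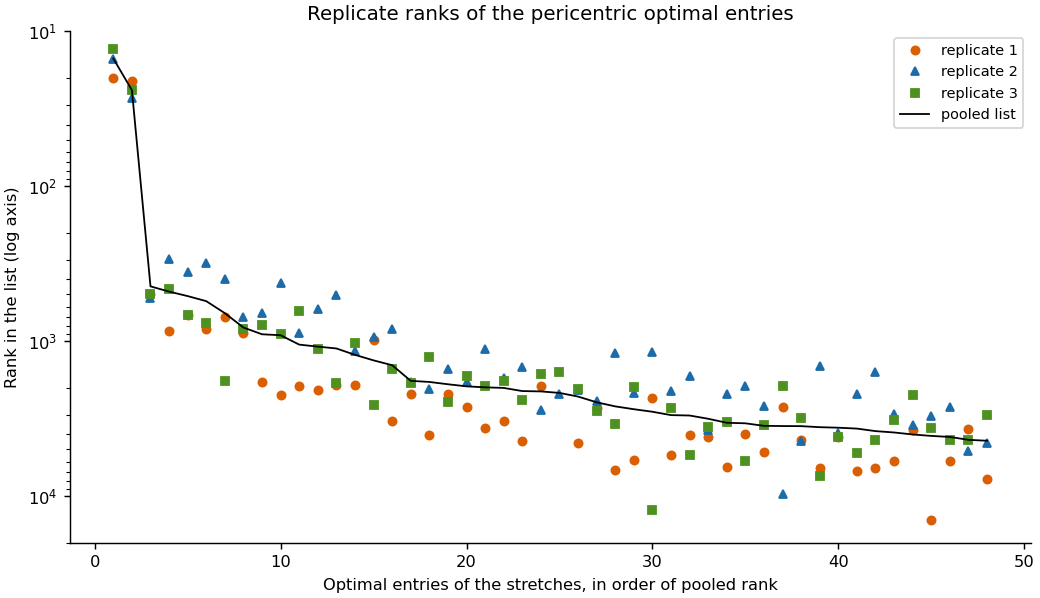
Rank of each of the 48 optimal members in the pooled list (line) and at the matching summit of each replicate list (points), on a log axis with the strongest at the top. The first 2 members rank between 13 and 27 in every replicate; the eIF4B promoter ranks 14297 in replicate 1 against 3028 and 3652 in the others.

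The member of rank 15 on 3R ranked 20, 15 and 13 in replicates 1, 2 and 3. It was intergenic, 51527 bp from the nearest start site, that of spok, a cytochrome P450 gene of ecdysone synthesis, and held none of the 9 words searched. Its window was an imperfect repeat, yet each of its 31-mers occurred once in the genome. Of the bases with a partner 55 bases further on in the window, 80.4% were equal, at the best of the shifts tried. The best shift gave 37.1% at the member of rank 24 and 46.3% at MED21. The member of rank 24 on 2L ranked 21, 27 and 24. It lay in an annotated gypsy8 element, a retrotransposon, 11356 bp from Tif-IA, a gene for an RNA polymerase I initiation factor, and its 31-mers were also all unique. The next member ranked 443, so these were the 2 members among the first 100 entries, where the rest of the arms had 57.

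Promoters were a small part of the stretches, and their share of members was small too. Promoter here means a summit within 500 bp of an annotated transcription start site, starts of transposable elements left out. Promoters took 99 members (10.2%, 95% interval 8.34 to 12.2), against 32.4% of all pooled entries and 32.8% on the rest of the arms. In replicates 1, 2 and 3 the promoter share was 10.3%, 9.11% and 9.78% in the stretches, and 33.2%, 31.1% and 31.4% on the rest, with no overlap. The means were 9.73 ± 0.597% and 31.9 ± 1.12% (SD, n = 3, exact permutation p = 0.25, the smallest possible). Bases within 500 bp of a start made up 1.32% of the stretches and 15.3% of the rest. The promoter share was therefore 7.69 times the share of bases in the stretches and 2.13 times on the rest, or 3.51 and 2.09 times when unique bases were counted.

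Among optimal members 28 of 48 lay at promoters (58.3%, 95% interval 43.2 to 72.4), against 65.1% on the rest, which lies inside that interval. The strongest entries of the replicates gave 53.0 ± 3.93% in the stretches and 64.1 ± 0.930% on the rest (SD, n = 3), lower in 3 of 3 replicates (exact permutation p = 0.25, the smallest possible). The difference, stretches minus rest, was -11.2 ± 4.28 percentage points among the strongest entries and -22.2 ± 0.646 among all entries (SD, n = 3).

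**Figure D4:**
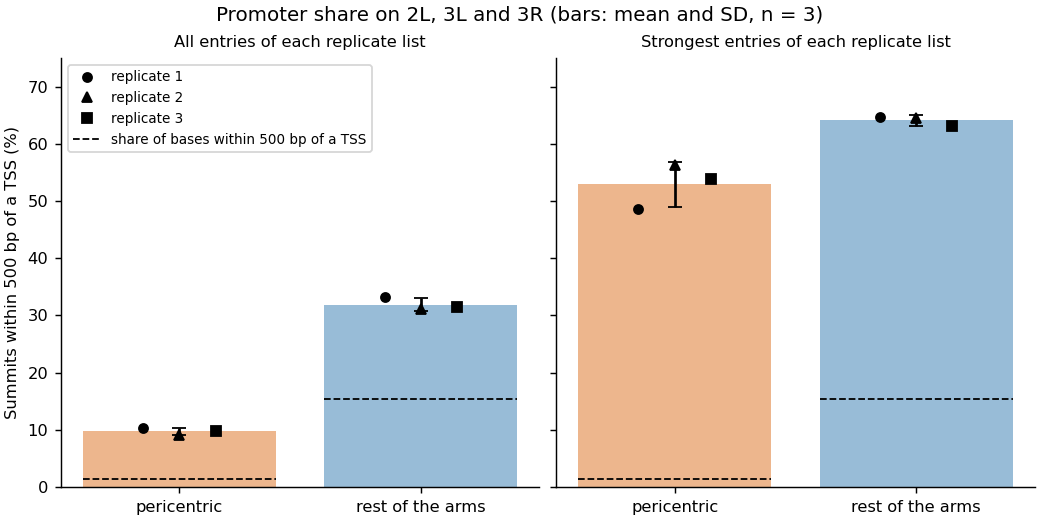
Share of summits within 500 bp of a transcription start site in each replicate list (points), with the mean and SD (bars, n = 3), for pericentric entries on the left and the rest of the same arms on the right of each panel; the dashed lines mark the share of bases within 500 bp of a start, 1.32% and 15.3%. All entries gave 9.73% and 31.9%, and the strongest entries 53.0% and 64.1%.

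Of the 875 members away from promoters 46.7% were intergenic and 42.4% intronic, against 27.7% and 56.5% of such entries on the rest of the arms. Counted over all entries, intergenic summits made up 42.0% of members and 18.6% of the rest, where intergenic bases cover 51.2% and 24.7%. Intronic summits made up 38.1% and 38.0%, and intron bases 45.3% and 38.3%. Of unique bases, 39.7% in the stretches and 24.1% on the rest were intergenic, and 52.9% and 37.9% intronic. Against unique bases, the intergenic share of members was thus slightly above its base share, and the intronic share further below. Coding exons held 5.75% of members and 5.73% of the rest, although they cover 1.11% of bases in the stretches and 15.5% on the rest. Of unique bases they cover 2.77% and 16.0%. Annotated transposable elements held 14.1% of member summits, while covering 14.5% of bases, and 0.628% of summits on the rest, where they cover 3.85%. The first Mb of 3L decided that value: without it 28 of 709 members (3.95%) had their summit in one, while annotated elements cover 10.3% of the remaining bases. From that Mb to the next on 3L, annotated elements fell from 55.1% to 10.2% of bases, although unique bases also fell, from 56.9% to 42.3%. How complete the annotation of elements is deeper in was not tested, so these shares cannot show that members avoid elements. Among optimal entries 2 of 48 members (4.17%) lay in one, against 0.146% on the rest. Of the optimal members 8 of 48 (16.7%) lay over 20 kb from any start, against 14 of 2743 (0.510%) on the rest. Genes are sparser in the stretches, and the part of gene spacing in that count was not tested.

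The stretches held 71 protein-coding genes, 6.68 per Mb against 119.7 per Mb on the rest of the arms. Genes with a start 500 bp or less from the summit of an optimal entry count as bound. That held for 26 of the 71 (36.6%, 95% interval 25.5 to 48.9), against 25% of all protein-coding genes and 25.4% on the rest of the arms, and by arm for 6 of 21 on 2L, 15 of 36 on 3L and 5 of 14 on 3R. In replicates 1, 2 and 3 the share was 22.5%, 36.6% and 36.6% in the stretches against 24.98%, 25.7% and 24.1% on the rest. Replicate 1 was lower and the others higher, so the groups overlapped (31.9 ± 8.13% against 24.9 ± 0.803%, SD, n = 3, exact permutation p = 0.5).

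Genes were also set side by side by length, and no test addressed length itself. The genes of the stretches were longer, with a median of 8.58 kb against 2.07 kb on the rest of the arms, and bound genes on the rest had a median of 3.12 kb against 1.84 kb for unbound ones. In the stretches the order was the other way round, 7.21 kb for bound and 10.3 kb for unbound genes. Of the 49 pericentric genes of 5 kb or more 17 were bound (34.7%, 95% interval 21.7 to 49.6), against 37.1% of 2057 such genes on the rest. In the replicates these longer genes gave 22.4%, 36.7% and 32.7% in the stretches against 36.4%, 36.8% and 36.5% on the rest, lower in 3 of 3 (exact permutation p = 0.25, the smallest possible). Of the 22 shorter pericentric genes 9 were bound (40.9%), against 21.8% of 6689 on the rest. In the replicates the shorter genes gave 22.7%, 36.4% and 45.5% in the stretches against 21.5%, 22.2% and 20.3% on the rest. This share was higher in 3 of 3 replicates (exact permutation p = 0.25, the smallest possible), but only slightly in replicate 1. The split at 5 kb was chosen after the data were seen.

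**Figure D5:**
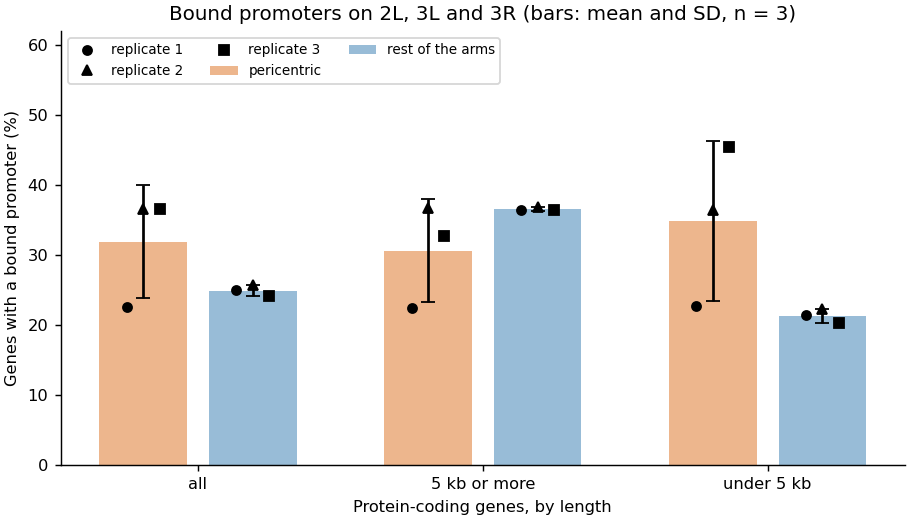
Share of protein-coding genes with a bound promoter in each replicate (points), with the mean and SD (bars, n = 3), for the pericentric stretches on the left of each pair and the rest of the same arms on the right. All genes averaged 31.9% and 24.9%, genes of 5 kb or more 30.6% and 36.6%, and shorter genes 34.8% and 21.3%.

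The strongest of the 26 bound genes was MED21, a subunit of the Mediator complex that links transcription factors to RNA polymerase II, with rank 443 in the pooled list and 493, 527 and 498 in the replicates. Clamp, which encodes a zinc finger protein that binds GA repeats and serves dosage compensation, ranked 479, with 863, 295 and 459 in the replicates. Its summit lay 92 bp from the Clamp start and 433 bp from that of lncRNA:CR44809, so the signal cannot be assigned to either. Dbp80, a DEAD-box RNA helicase gene, followed with rank 660 and replicate ranks 697, 395 and 1803.

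Bound genes also included RpL5 (rank 1085), RpL10 (1958) and RpL15 (2159), of the large ribosomal subunit, and the initiation factor gene eIF4B (4089). RpL21, a further ribosomal protein gene of the stretches, was not bound, with its best promoter entry at rank 7432. Bound genes of mitochondrial proteins included UQCR-11 (1987), a subunit of respiratory complex III, ND-AGGG (2279), of complex I, Nubpl (2856), an assembly factor of complex I, and Tim17b (3364), of the inner membrane translocase. Unbound ones included ND-MLRQ, with its best promoter entry at rank 6992, the mitochondrial ribosomal protein gene mRpS5 (4861) and Tim23 (4981), of the translocase. The Nubpl promoter ranked 2311 and 1174 in replicates 1 and 2 and 12274 in replicate 3. The other bound genes included beta-Man (1053), for the lysosomal enzyme beta-mannosidase, scro (2481), a homeobox gene, Spf30 (2637), a splicing factor gene, Slmap (3020), Myo81F (3521), a myosin gene, alpha-Cat (3592), for the adherens junction protein alpha-catenin, and lt (4153), for a protein of vesicle transport to the lysosome. The remaining bound genes were l(3)80Fg, l(3)80Fj, CG33217, CG40045, CG40228, CG41099, CG41128 and CG12567.

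A list of 27 classic pericentric gene symbols was followed whether bound or not. Of these, 20 lay inside the stretches, RpL38, nrm, dbr, ALiX and Chro had their starts outside them, and Parp and Cht3 were not matched to the annotation by symbol. Of the 20, 7 were bound (lt, RpL5, RpL15, Dbp80, Myo81F, eIF4B and scro) and 17 had some pooled entry at the promoter, beside 26 and 57 of all 71. Several unbound genes fell just short of the optimal list: Set1, a histone H3 lysine 4 methyltransferase gene, ranked 4746, cta, a G protein gene needed for gastrulation, 4848, mRpS5 4861, Alg-2 4876 and Tim23 4981. Their calls therefore rest on the length of that list. The cohesin gene vtd ranked 6604, the piRNA pathway gene AGO3 9129 and Parp1 10035. Snap25, a synaptic SNARE gene, had a promoter entry at rank 23606, found in replicate 2 only. No pooled entry lay at the promoters of nvd and spok, both of ecdysone synthesis, or of Pzl, the Piezo-like channel gene.

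Of 38 non-coding RNA genes in the stretches, 4 were bound (10.5%, 95% interval 2.94 to 24.8), against 6.81% of all non-coding RNA genes and 5.07% on the rest of the arms. The replicates gave 10.5%, 13.2% and 10.5% in the stretches against 5.07%, 5.16% and 5.25% on the rest, higher in 3 of 3 (exact permutation p = 0.25, the smallest possible). The count is small, and 2 of the 4, lncRNA:CR44809 and lncRNA:CR43765, share their summit with Clamp and Nubpl.

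The bodies of protein-coding genes held 494 members (50.7%), and 61 of the 71 genes held at least 1. Neither the share of bases in these bodies nor the matching share on the rest of the arms was worked out. Introns of all genes cover 45.3% of bases in the stretches and 52.9% of unique bases, so the counts are a description only. The 18 genes with 10 or more held 343. The acetylcholine receptor gene nAChRalpha4 had the most, 42 in 80.8 kb, of which 16 recurred and 2 were optimal. Snap25 had 32 in 225 kb, Dbp80 29 in 143 kb, AGO3 28 in 135 kb and Myo81F 18 in 1966 kb. Counted per 100 kb, nAChRalpha4 had 52.0 and Myo81F 0.916. These values were not scaled to unique sequence. The 3L bin of nAChRalpha4 had 56.9% unique bases, and the 3R bins that Myo81F spans had 36.8%, 34.3% and 27.3%. Some optimal members lay deep inside such genes. In Myo81F a member 254766 bp from the nearest start site ranked 817, with 884, 703 and 831 in the replicates, above the Myo81F promoter at 3521. In Pzl a member 145415 bp from the nearest start ranked 1804, with 2187, 1824 and 1855, in a window of which 33.8% of 31-mers were unique.

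The Snap25 intron site printed above ranked 512, with 678, 358 and 678 in the replicates, and the site 691 bp from the Tim17b start ranked 903, with 1840, 654 and 791. They lie on different arms but share a block of 35 identical bases, and TATCGATA starts 5 bases after it in both. No other exact copy of that block is in the assembly. The Snap25 site shares another block of 35 bases, which contains TATCGATA, with the intronic site of rank 4460 in the same gene (10291, 4468 and 4035 in the replicates). That second block has a further copy on the Y chromosome, where pooled entries were not searched. Only 54.9% of the 31-mers at the Snap25 site, 87.3% at its neighbour and 91.5% at the Tim17b site were unique, and how reads were placed between the copies was not tested. Among all members 14 (1.44%) shared a 31-mer with another member at a separate position. The upstream Tim17b site and the promoter member of that gene, of rank 3364, are separate entries.

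Words were searched on both strands of the same window around each summit, and a match is a description only. TATCGATA was present at 24 members (2.46%, 95% interval 1.59 to 3.64) and at 1.52% of entries on the rest of the arms. CGATA was present at 17.7% (15.3 to 20.2) and 14.7%. At promoters CGATA was present at 22.2% of members and 22.3% of entries on the rest, and TATCGATA at 4.04% and 4.10%. Among optimal entries CGATA was at 17 of 48 members (35.4%, 95% interval 22.2 to 50.5) and at 24.3% of the rest. Of those 17, 9 were among the 28 promoter members and 8 among the 20 members away from promoters. On the rest, 667 of 2743 optimal entries held CGATA, and 547 of these were among the 1785 at promoters. CGATA was thus less confined to promoters among optimal members than on the rest. At optimal promoters the share was close to the rest, 32.1% of 28 members (95% interval 15.9 to 52.4) against 30.6%.

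Over all entries GGTCACACT, the M1BP site, was at 0.308% of members against 1.11% on the rest, CAGCTG at 3.39% against 5.32%, and CATCNCTA at 0.821% against 1.38%. Fewer members lie at promoters, and the part of this in the lower shares was not tested. Among promoter entries the 95% intervals of the members include the rest for all 3 words, but with 99 members they are wide and cannot show equal shares. There GGTCACACT was at 0 of 99 members (interval to 3.66%) against 3.14% on the rest, CAGCTG at 5.05% (1.66 to 11.4) against 6.92%, and CATCNCTA at 0 (to 3.66%) against 2.87%. GAGAGAG was at 1.95% and 1.52%, and CAGGTAG, the Zelda site, at 0.616% and 0.456%. A pair of AAGAG satellite units was at 0 of 974 members, which allows up to 0.308% when a count of 0 is given a limit of 3 counts (exact 95% interval to 0.378%), and at 0.0444% of the rest. A pair of AATAT units was at 1 member (0.103%) and at 0.194% of the rest. In the member windows 67.8% had only unique 31-mers, against 99.0% on the rest. For optimal members the share was 85.4% against 99.5%.

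The entries nearest to the edges were weak on the inner side. Just inside, the summits ranked 28018 in CG42748 on 2L, 28861 in nrm on 3L and 20189 in beta-Man on 3R. Just outside lay rank 24865 on 2L in dunk, which itself lies within CG42748, rank 28592 on 3L in nrm and, on 3R, the optimal entry of rank 1168 in CG14636, which overlaps aux. The members were not all separate sites, since 159 (16.3%) overlapped another member, and summits within 500 bp of each other formed 889 groups.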

How the data were processed

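Per the deposited file lists, the authors derived relaxed peak lists (peaks and background) from the alignments of each replicate and of the pooled replicates with a control, and an optimal list from these. The aligner, peak caller and threshold: not given in the sources used here. Each peak's signal and the −log10 q are the authors' deposited values; the signal served for ranks within a list and the −log10 q entered no test. The dm6 lists were used, with the Ensembl release 115 annotation (BDGP6.54) and RefSeq's copy of the assembly. Transposable elements were left out of the genes. The members, gene list and words were chosen with earlier results of these data known. Named genes were those within 500 bp of the 25 best optimal members, the classic pericentric genes, the 25 best recurring members and the entries at the edges; further genes were named after their values were seen. Replicates were compared by exact two-sided sign-flip permutation tests, with no test over entries. Scripts (Python 3.11.15, pandas 2.3.3, numpy 2.4.6, scipy 1.17.1) were tested on simulated data. Alternatives varied the promoter and matching distances, the edges, the entries and the replicates.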

Additional observations from a re-analysis of the deposited data

Results flagged for a closer look

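The dm3 lists, which entered no comparison above, include entries on separate heterochromatin scaffolds. On 2LHet, 3LHet and 3RHet the optimal dm3 list held 20 of its 4610 entries, 2, 11 and 7 by scaffold. These entries come from the same 3 replicates as the dm6 lists, so they are no independent signal. There was no control list or expected count to set beside them. Only these scaffolds were counted, and whether they hold the same sequence as the dm6 stretches was not tested. The dm3 counts are therefore no counterpart of the dm6 member counts. The pooled dm3 list held 403 entries there, and the replicate lists 302, 415 and 327. The strongest was on 3RHet, with rank 15 in the pooled list and 20, 16 and 13 in the replicates. The dm6 member of rank 15 on 3R had ranks 20, 15 and 13, and whether both are the same site was not tested. Coordinates were not converted between builds.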

How the results depend on the processing

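No paired analysis was possible because the labels give a single group, so no groups of samples can be blocked by replicate number; the pericentric entries and the rest were already compared within each replicate list. Over the 3 arms together, every alternative run on the pooled list left the pericentric density, optimal share, recurrence and promoter share below the rest and the median rank behind it. Density did not keep this direction by arm or replicate. Per Mb of unique sequence it was higher in the stretches on 2L (348 against 255), on 3L (314 against 284) and in replicate 2 (261 against 259). The share of protein-coding genes bound changed direction, to 34.7% against 37.1% among genes of 5 kb or more; among genes with over 50% unique promoter sequence it was 39.4% against 26.0%. These alternatives, and the promoter share of 14.1% (32.6% on the rest) in windows of unique 31-mers, were chosen after the data were seen. Density was 67.1 or 112 entries per Mb with edges 500000 bp nearer to or farther from the centromere, against 246 on the rest with either edge. Per Mb of unique sequence it was 246 against 258. With edges farther out the optimal share was 6.49%, the promoter share 15.6% and the bound genes 26.9% against 25.5%; with edges nearer, recurrence was 16.3%, the promoter share 8.97% and the median rank 20057. Recurrence was 8.21% within 50 bp (15.6% on the rest), 27.8% within 300 bp (42.6%) and 2.98% among the strongest entries (9.56%). When 1 replicate was left out it was 27.3% to 32.5%, against 41.1% to 42.2% on the rest. The promoter share was 8.21% within 250 bp (25.3% on the rest) and 16.1% within 1000 bp (45.2%). It was 58.3% for optimal (65.1%) and 27.4% for recurring entries (50.7%), and 27.3% (34.4%) with starts of transposable elements counted. With 1 replicate left out of the recurrence asked it was 20.2% to 21.4%, against 44.7% to 45.6% on the rest. With all pooled entries 80.3% of the genes were bound, and with 1 replicate left out 35.2% to 36.6%. CGATA was at 30.1% of windows of 100 bp on each side, 35.4% of optimal and 24.7% of recurring members. Among the other words CAGGTAG also changed direction in optimal entries (0.0% against 0.365%) and the pair of AAGAG units in the wider window (0.103% against 0.0889%). The cause of these shifts was not tested. Depth is unknown, 3 replicates cannot give an exact p under 0.25, and reads from repeats may be placed at a wrong copy.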
